A study of Homo sapiens with 1 sample.

Results

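The 9 genes described here are members of the NRF2 (nuclear factor erythroid 2-related factor 2) pathway and its antioxidant program: NFE2L2, KEAP1, NQO1, HMOX1, GCLC, GCLM, TXNRD1, SRXN1 and SQSTM1. A peak of open chromatin was assigned to a gene when its summit, the position of highest read pileup, lay inside the gene record or within 50 kb of either end of it. By this rule 100 of the 88615 peaks on the 24 primary chromosomes belonged to the 9 genes. The data came from 1 ATAC-seq library (assay for transposase-accessible chromatin) of human 786-O cells, a long-used line from clear cell kidney cancer that lacks functional VHL, which carried an empty vector and served as the control. The library was made by Tn5 transposition of nuclei, and its DPF3a-overexpressing counterpart was not analysed here. With 1 library and no replicate, no comparison between conditions and no test was possible, and every value below describes this library alone.

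NRF2, encoded by NFE2L2, is a basic leucine zipper transcription factor that KEAP1 holds in the cytoplasm and presents to a cullin-based ubiquitin ligase for degradation. When electrophiles or oxidants modify cysteines of KEAP1, NRF2 escapes, enters the nucleus, pairs with a small MAF protein and binds antioxidant response elements (ARE) near genes of glutathione synthesis, the thioredoxin system, quinone reduction and heme breakdown. An open promoter allows transcription but does not measure it, and neither RNA nor NRF2 binding was measured in these peaks.

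The sequences that matter most for this pathway are the ARE cores lying in the open chromatin of the genes. The core was searched as TGACNNNGC on both strands, and the AP-1 site, the binding site of JUN and FOS family proteins, as TGACTCA or TGAGTCA on both strands. The words overlap: TGACTCAGC is an ARE core and an AP-1 site at once, and is called a joint site below. The plan covered the ARE core and the AP-1 site near the summit. The joint site and the search of whole peaks were not planned. Shown here are each joint site inside a gene's own promoter peak, the joint sites upstream of HMOX1 with the cores beside them, and for each gene without a joint site in a promoter peak the core nearest to the summit, or for SRXN1, whose promoter peak held no core, the AP-1 site. All are hg38, written 5′ to 3′ on the strand of the gene, and capitals mark the match, which reads as GC, any 3 bases and GTCA where the core lies on the opposite strand. A match is a description of letters in the reference genome and not a bound site.
HMOX1 distal upstream peak, chr22:35371999-35372134, plus strand: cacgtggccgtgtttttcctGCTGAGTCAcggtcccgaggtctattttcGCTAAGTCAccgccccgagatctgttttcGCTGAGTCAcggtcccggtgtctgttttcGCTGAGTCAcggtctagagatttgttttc
HMOX1 proximal upstream peak, chr22:35377072-35377184, plus strand: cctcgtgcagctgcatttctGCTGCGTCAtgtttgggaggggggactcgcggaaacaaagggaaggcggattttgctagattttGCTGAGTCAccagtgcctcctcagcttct
NQO1 promoter, chr16:69726987-69727035, minus strand: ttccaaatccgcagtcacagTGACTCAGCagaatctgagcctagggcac
GCLC outer promoter, chr6:53548239-53548267, minus strand: cgcacaaagcGCTGAGTCAcggggaggcg
SQSTM1 promoter, far site, chr5:179819565-179819613, plus strand: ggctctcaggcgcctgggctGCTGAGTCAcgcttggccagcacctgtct
SQSTM1 promoter, near site, chr5:179820533-179820581, plus strand: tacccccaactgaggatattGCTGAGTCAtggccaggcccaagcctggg
GCLM promoter, chr1:93909446-93909474, minus strand: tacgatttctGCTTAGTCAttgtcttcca
KEAP1 promoter, chr19:10502784-10502812, minus strand: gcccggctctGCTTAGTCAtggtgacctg
NFE2L2 promoter, chr2:177263603-177263631, minus strand: ttggcttccgTGACAGCGCtcggttggcc
TXNRD1 canonical promoter, chr12:104215761-104215789, plus strand: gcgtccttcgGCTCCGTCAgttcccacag
TXNRD1 internal promoter, chr12:104286920-104286948, plus strand: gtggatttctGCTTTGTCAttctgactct
SRXN1 promoter, chr20:653446-653492, minus strand: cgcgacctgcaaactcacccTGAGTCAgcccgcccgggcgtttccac

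All 9 genes had a peak at a promoter, that is, a summit from 1 kb upstream to 100 bp downstream of an annotated transcription start site (TSS). Among all 20033 protein-coding genes the share with such a peak was 61.4%. At the canonical TSS alone, 6 of the 9 genes had a promoter peak, against 52.2% of protein-coding genes. The exceptions were NFE2L2, KEAP1 and SQSTM1, whose promoter summits lay 1019 bp, 592 bp and 813 bp downstream of the canonical TSS. The nearest annotated start of the gene was 58 bp away for NFE2L2 and 77 bp for KEAP1, but 767 bp for SQSTM1. The intervals of the NFE2L2 and SQSTM1 peaks covered the canonical TSS, and that of KEAP1 did not.

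Peak height is given as fold over the genome-wide background, as the peak caller wrote it. From the fold the number of reads piled up at the summit was recovered, and the 95% range in parentheses is the exact Poisson interval of that pileup. They account for counting error alone, and the choice of the highest point as summit biases its pileup upward. Over the 9 genes the highest promoter peak had a median fold of 38.1, against 25.8 over all protein-coding genes with a promoter peak. With canonical starts alone, 6 of the 9 genes remained and their median was 23.7. A median over canonical starts of all protein-coding genes was not computed. Taking the highest peak over any start favours genes with many annotated starts, and these numbered 44 for NFE2L2, 19 for TXNRD1 and 1 for SRXN1. GCLC stood highest at 53.6 (43.8 to 64.9), followed by GCLM at 47.4 (38.3 to 58.1), NQO1 at 45.9 (36.9 to 56.4), NFE2L2 at 42.3 (33.7 to 52.4) and SQSTM1 at 38.1 (30.0 to 47.8). TXNRD1 at 29.4 (22.3 to 38.0), KEAP1 at 23.7 (17.4 to 31.5), and HMOX1 and SRXN1, both at 20.6 (14.8 to 28.0), were lower. Each gene's interval overlapped that of its neighbour in this order, so neighbours could not be separated by counting error, whereas the interval of GCLC lay above those of TXNRD1, KEAP1, HMOX1 and SRXN1. Dividing by the median promoter fold of each chromosome, as DNA copy number was not measured, multiplied the 9 values by 0.844 to 1.267.

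**Figure D1:**
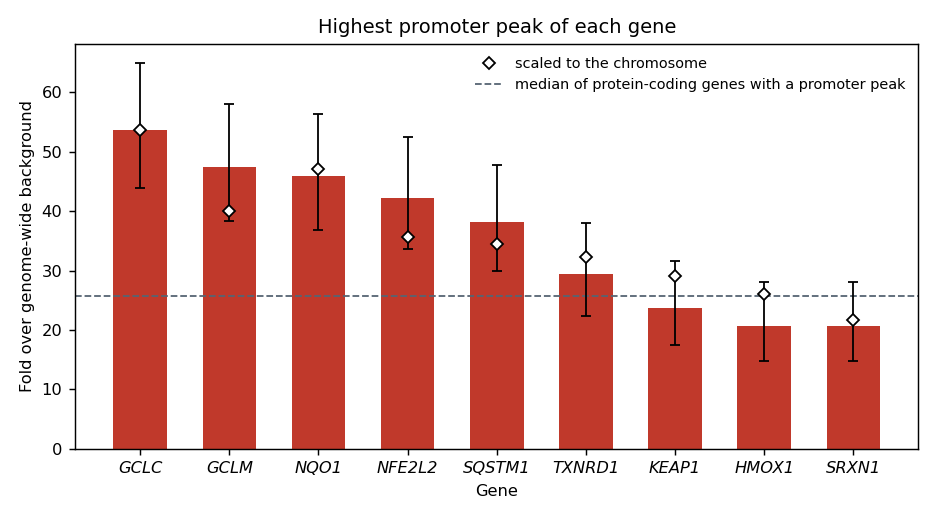
Fold over the genome-wide background at the summit of the highest promoter peak of each of the 9 genes in 1 library (bars), with the 95% Poisson interval of the pileup (error bars) and the value scaled to the median promoter peak of the chromosome (diamonds). GCLC, GCLM, NQO1, NFE2L2 and SQSTM1 have intervals above the dashed median of 25.8 of protein-coding genes, and the intervals of TXNRD1, KEAP1, HMOX1 and SRXN1 include it.

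The number of peaks in a gene's window varied from 3 to 23, with a median of 10 against 7 over protein-coding genes. Windows differ in length with the gene record, so the number per 100 kb was compared. It was highest for SQSTM1 at 13.7 and HMOX1 at 10.54, followed by NFE2L2 at 8.39, TXNRD1 at 7.25, GCLM at 6.44, GCLC at 4.55, KEAP1 at 4.26, SRXN1 at 3.75 and NQO1 at 2.51. The median over protein-coding genes was 4.51, and 97.1% of them had a less dense window than SQSTM1. NQO1, among the genes with the strongest promoters, had the fewest peaks per 100 kb of the 9, although peaks covered a larger share of its window (2.69%) than of those of KEAP1 (2.45%) and SRXN1. Peaks covered 12.4% of the SQSTM1 window, 8.24% of that of NFE2L2 and 1.97% of that of SRXN1, against a median of 3.27%.

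**Figure D2:**
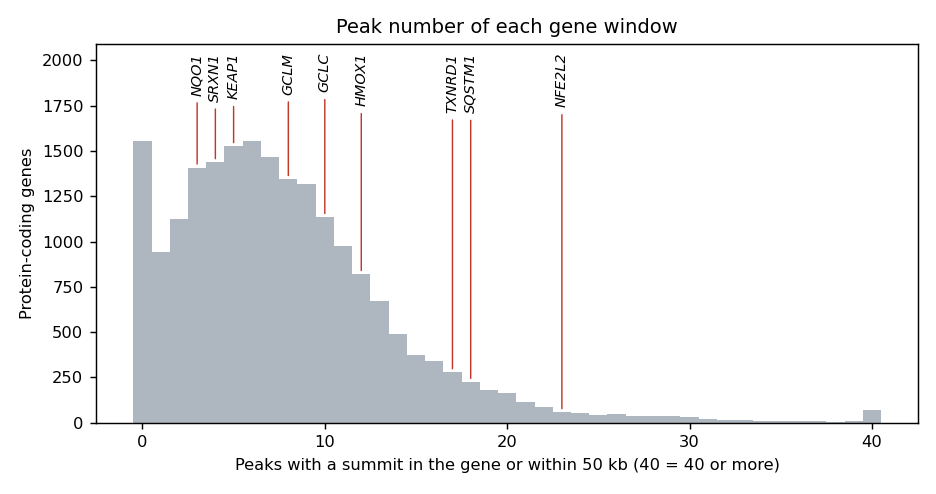
Histogram of the number of peaks with a summit in the gene or within 50 kb over 20033 protein-coding genes (the last bin holds 40 or more), with the 9 genes marked at their own number. NQO1, SRXN1 and KEAP1 sit at 3, 4 and 5 peaks, below the median of 7, and TXNRD1, SQSTM1 and NFE2L2 at 17, 18 and 23 lie in the upper tail.

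Of the 100 peaks, 14 lay at promoters of the 9 genes, 17 at promoters of other genes, 29 inside the 9 genes away from promoters, 18 inside other genes and 22 between genes. The share at any promoter was 31% (exact binomial 95% interval 22.1 to 41.0), against 19.4% of all peaks. The median fold of the 100 peaks was 10.3 and that of all peaks 10.8. By place, the median was 28.1 for promoter peaks of the 9 genes, 20.1 for promoter peaks of their neighbours and 8.76 for the remainder. The corresponding medians over all peaks were 19.6 at promoters and 9.28 elsewhere. The highest of the 100, at 71.1 fold, belonged to the promoter of HNRNPA3, a neighbour of NFE2L2, and the lowest stood at 5.15. At the window's edge, the last summits inside lay 43969 bp from SQSTM1 and 46216 bp from NFE2L2, with folds of 8.76 and 37.1, and the first outside lay 50147 bp from NFE2L2 and 51930 bp from TXNRD1, with folds of 42.8 and 8.24.

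**Figure D3:**
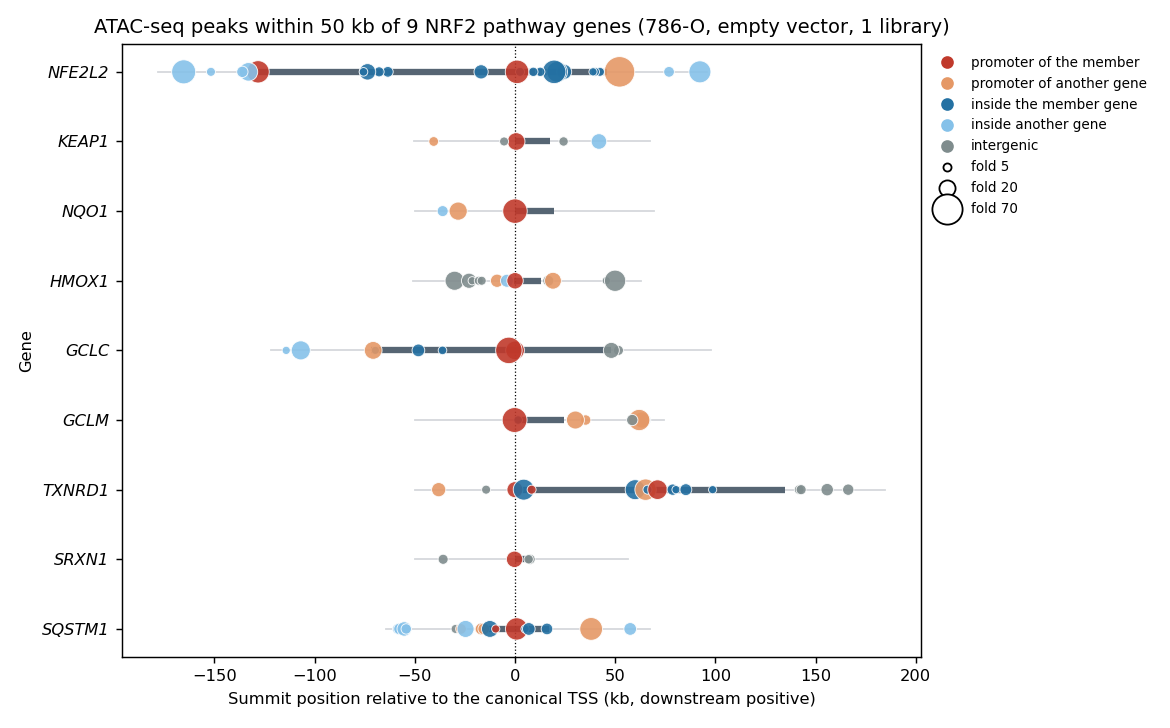
Summits of the 100 peaks by distance from the canonical TSS of each gene (kb, downstream positive), with circle area proportional to fold and colour for the place of the summit; thick lines are the gene records and thin lines the windows. NFE2L2, TXNRD1 and SQSTM1 carry many peaks and NQO1 and SRXN1 few, and the largest circle is the HNRNPA3 promoter in the NFE2L2 window.

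Among the regulators, NFE2L2 (chr2:177218667-177392756, minus strand) had 23 peaks, more than 97.5% of protein-coding genes. Its promoter peak was 2495 bp wide with its summit in an intron of the canonical transcript, 1019 bp downstream of the canonical TSS and 58 bp from another annotated start. A second promoter peak, at 38.1 fold (30.0 to 47.8), lay 128199 bp upstream of the canonical TSS, at starts shared with AGPS. Between these starts and the end of the gene 14 further peaks lay inside NFE2L2, 9 of them downstream of the main promoter peak. The strongest of them were intronic, 19537 bp and 21028 bp downstream of the canonical TSS, at 42.3 fold (33.7 to 52.4) and 33.0 fold (25.5 to 42.0). The first of these equalled the promoter peak in height. Outside the gene, a peak inside AGPS, 165338 bp upstream, reached 44.3 fold (35.5 to 54.7) and was the only peak of this window with joint sites, at 169 bp and 98 bp on either side of its summit. Of the 23 peaks, 9 had a pileup under 15.

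KEAP1 (chr19:10486125-10503558, minus strand), the sensor that marks NRF2 for degradation, had 5 peaks. Its promoter peak at 23.7 fold was the highest of them, and a peak inside PDE4A followed at 18.6 fold (13.1 to 25.6). The other 3 had folds between 6.18 and 7.21, and no peak lay inside KEAP1 away from its promoter. The promoter peak held 2 ARE cores, TGACTAAGC at 34 bp and TGACACGGC at 57 bp from the summit.

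SQSTM1 (chr5:179806398-179838078, plus strand) encodes p62, an autophagy receptor that binds KEAP1 and competes with NRF2 for it. It had 18 peaks. Its promoter peak was the widest of the 100, at 3622 bp, and its summit lay 813 bp downstream of the canonical TSS. The 2 joint sites printed above lay 1316 bp and 348 bp upstream of the TSS, inside the peak but 2129 bp and 1161 bp away from its summit. A second promoter peak, 9617 bp upstream of the canonical TSS, was among the lowest peaks at 5.15 fold (2.64 to 9.32), and the promoter of MRNIP, 38006 bp downstream, had 39.7 fold (31.4 to 49.5), an interval that overlapped that of the SQSTM1 promoter. A further joint site lay 54424 bp upstream, in a peak of 8.24 fold inside MAML1.

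GCLC and GCLM encode the catalytic and the modifier subunit of glutamate-cysteine ligase, the rate-limiting enzyme of glutathione synthesis. GCLC (chr6:53497341-53616970, minus strand) had 10 peaks, with 2 at its promoters. The peak at the canonical TSS, 27 bp downstream of it, had a fold of 26.8 (20.1 to 35.1). The outer promoter peak, 3050 bp upstream of the canonical TSS and 55 bp from another annotated start, had a fold of 53.6, and these counting intervals did not overlap. Only the outer peak of the pair held ARE cores: TGACTCAGC at 3152 bp, TGACTGCGC at 3107 bp and TGACAATGC at 2623 bp upstream of the canonical TSS. A further joint site lay 70957 bp upstream, in a peak of 24.2 fold (17.9 to 32.1) at the LINC01564 promoter.

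GCLM (chr1:93885199-93909456, minus strand) had 8 peaks, and its promoter peak at 47.4 fold, 189 bp upstream of the TSS, was the highest. The core TGACTAAGC lay 30 bp upstream of the TSS and 159 bp from the summit. The window held 4 promoter peaks of neighbouring genes, at BCAR3 with 34.5 fold (26.8 to 43.8) and 20.1 fold (14.4 to 27.4) and at DNTTIP2 with 24.7 fold (18.3 to 32.7) and 8.24 fold (4.84 to 13.3). The stronger DNTTIP2 peak held a joint site, 30834 bp downstream of the GCLM TSS. Inside GCLM itself there was 1 further peak, of 5.67 fold.

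Of the thioredoxin branch, TXNRD1 (chr12:104215779-104350307, plus strand) encodes cytosolic thioredoxin reductase and SRXN1 encodes sulfiredoxin, which restores overoxidised peroxiredoxins. TXNRD1 had 17 peaks and was the only one of the 9 genes with 3 promoter peaks. These stood at the canonical TSS with 19.6 fold (13.9 to 26.8), at 8298 bp downstream with 6.18 fold (3.34 to 10.7) and at 71127 bp downstream with 29.4 fold (22.3 to 38.0). The intervals of the first and last overlapped. Peaks of similar height lay within the gene, at 4341 bp with 33.5 fold (25.9 to 42.6), at 59955 bp with 30.4 fold (23.2 to 39.2) and at 65160 bp with 35.0 fold (27.3 to 44.4), the last at the start of another gene record. Cores lay 18 bp from the summit of the canonical promoter peak (TGACGGAGC) and 28 bp from that of the internal one (TGACAAAGC), and the window held no joint site.

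SRXN1 (chr20:646615-653200, minus strand) had 4 peaks. Its promoter peak, 223 bp upstream of the TSS, reached 20.6 fold, and the other 3 peaks had folds between 6.70 and 7.73 with pileups under 15. The promoter peak held no ARE core. It held an AP-1 site, TGAGTCA, near the summit, and as the following bases are GC this site matched the looser word TGANNNNGC.

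NQO1 (chr16:69706996-69726668, minus strand), a quinone reductase widely used as a readout of NRF2 activity, had 3 peaks. The promoter peak at 45.9 fold, with its summit 4 bp upstream of the canonical TSS, also covered starts of the divergent transcript NQO1-DT. It exceeded the promoter peaks of 82.6% of protein-coding genes with a promoter peak. Its joint site lay 451 bp upstream of the TSS and 447 bp from the summit. The other 2 peaks lay at the NOB1 promoter, with 25.2 fold (18.8 to 33.3), and inside WWP2, with 9.28 fold (5.62 to 14.5), and no peak lay inside NQO1 beyond its promoter.

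HMOX1 (chr22:35380361-35394214, plus strand) encodes heme oxygenase 1, which breaks down heme and is repressed by BACH1 at the same elements that NRF2 binds. It had 12 peaks. The promoter peak, 28 bp downstream of the TSS, stood at 20.6 fold and held no ARE core. Of the 11 others none lay inside the gene, 8 were intergenic, and the highest, at 34.5 fold (26.8 to 43.8), lay 49948 bp downstream. All joint sites of the window lay upstream. The distal peak, 8954 bp upstream of the TSS with 13.4 fold (8.85 to 19.5) and a pileup of 25, held 3 joint sites, at 9073 bp, 9015 bp and 8986 bp, and the variant TGACTTAGC at 9044 bp, so that neighbouring cores were 29 bp apart. A further core, TGACAGAGC, lay 9497 bp upstream near the far edge of the peak. The proximal peak, 4021 bp upstream with 12.9 fold (8.44 to 18.9) and a pileup of 24, held TGACGCAGC at 4000 bp and a joint site at 3936 bp. Downstream, TGACCTCGC lay at 18894 bp in the promoter peak of MCM5 and TGACCTGGC at 45398 bp in an intergenic peak of 5.15 fold. The summit of the distal peak lay at the start of a gene record without a symbol, and that of the proximal peak inside another such record. Both upstream peaks were lower than the promoter peak, and their intervals overlapped its own.

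**Figure D4:**
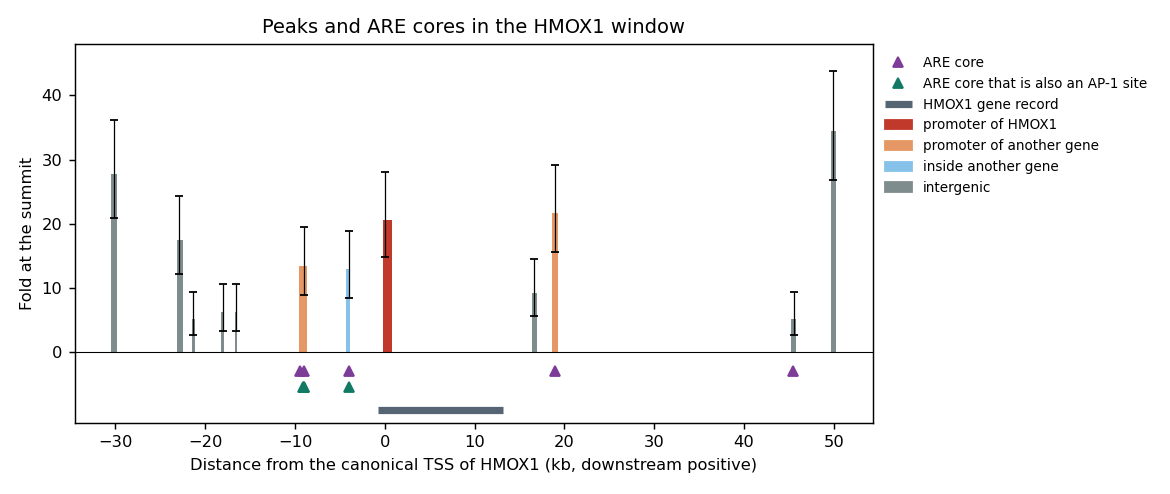
Fold at the summit of the 12 peaks in the HMOX1 window by distance from the canonical TSS (kb), drawn at the true width of each peak, with 95% Poisson intervals of the pileup; triangles mark ARE cores inside peaks. The joint sites lie under the distal and the proximal upstream peak, at 13.4 and 12.9 fold, and none lies under the promoter peak of 20.6 fold.

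Across the 100 peaks, an ARE core lay within 50 bp of the summit in 11 (5.62% to 18.8%), against 6.68% of all peaks. An AP-1 site lay within 50 bp in 12 (6.36% to 20.02%), against 15.7% of all peaks. Both backgrounds lay within the interval of the 100 peaks, so at this number of peaks a difference was not detectable. A joint site lay anywhere in the peak in 9 (4.20% to 16.4%), against 4.15% of all peaks. Within 50 bp of the summit it was found in 1 peak, the distal one of HMOX1, against 1.504% of all peaks. Peaks that share a gene are not independent, and the 9 peaks with joint sites came from 6 genes: HMOX1, GCLC and SQSTM1 with 2 each, and NFE2L2, NQO1 and GCLM with 1 each.

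Of the 31 promoter peaks in the windows, 6 held a joint site, or 19.4% (7.45 to 37.5), against 2.92% of all promoter peaks, and 18 held any ARE core, or 58.1% (39.1 to 75.5), against 37.6%. An AP-1 site lay anywhere in 11 of the 31, or 35.5% (19.2 to 54.6), against 21.9%. The 6 peaks with a joint site were at promoters of NQO1, GCLC and SQSTM1 and of neighbours. These neighbours were LINC01564, DNTTIP2 and a gene record without a symbol upstream of HMOX1. Of the 69 other peaks, 3 held a joint site, or 4.35% (0.906 to 12.2), against 4.45%. Wider peaks hold more words by length alone: the 31 promoter peaks had a median width of 1099 bp and all promoter peaks of 948.5 bp. Per kb of promoter peak there were 0.244 joint sites in the windows and 0.0283 over all promoter peaks. The first value rests on 9 sites, several of them close together in the distal HMOX1 peak. A promoter density without HMOX1 was not computed. Over the 100 peaks the density was 0.154 per kb, against 0.0622 over all peaks, and without HMOX1 it was 0.116. For any ARE core the densities were 0.769 and 0.509 per kb.

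Counted by gene, 7 of the 9 had an ARE core in a promoter peak of their own, the exceptions being HMOX1 and SRXN1. The share over protein-coding genes with a promoter peak was 46.5%. With a joint site in a promoter peak of their own there were 3, NQO1, GCLC and SQSTM1, against 3.03% of protein-coding genes with a promoter peak. These counts by gene make no allowance for the length of promoter peak that each gene has. Of the 9 genes, 4 had more than 1 promoter peak, against 13.1% of protein-coding genes. The SQSTM1 peak was 3622 bp wide. Several of the 9 genes are known from textbooks as ARE genes, and the words are letters of the reference genome. The presence of the words in these sequences is therefore not a result of this library. The words were searched only inside called peaks, so each of these stretches lay in a peak by construction. Words of the windows outside peaks were not counted.

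**Figure D5:**
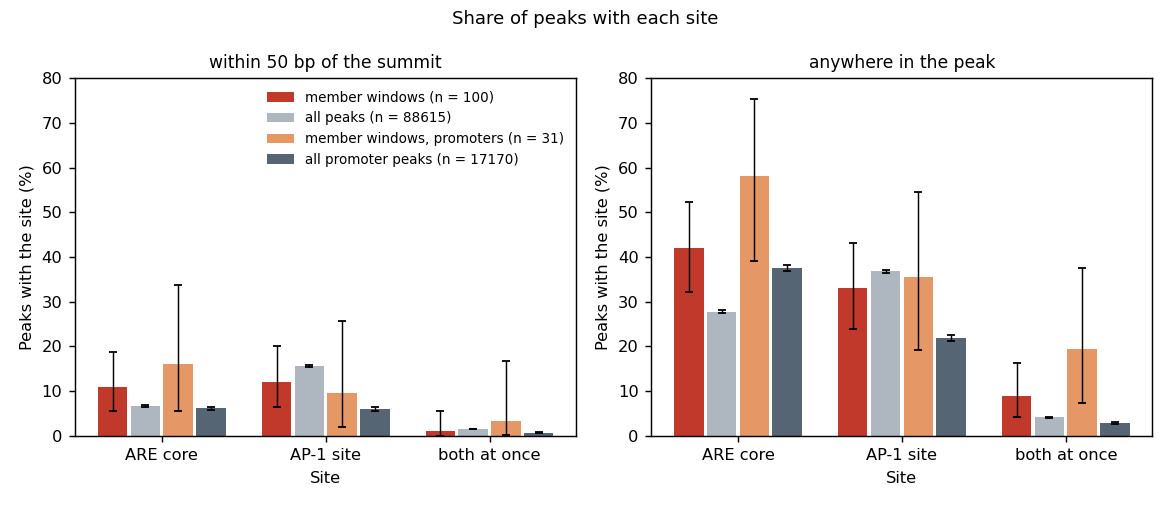
Percent of peaks with an ARE core, an AP-1 site or a joint site (labelled "both at once"), within 50 bp of the summit (left) and anywhere in the peak (right), for peaks of the 9 windows, all peaks, and promoter peaks of each; error bars are exact binomial 95% intervals. Joint sites anywhere in the peak reach 19.4% in the 31 promoter peaks of the windows, which include promoters of neighbouring genes, and 2.92% in all promoter peaks.

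The RefSeq promoter table (GRCh38.p14, 250 bases before to 50 bases after each start) had entries for 8 of the 9 genes and none for HMOX1. In these shorter stretches, which take no account of the peaks, 4 of 13 entries held an ARE core, against 13.3% of 35116 entries. Entries of the same gene are not independent. By gene, 3 of 8 had a core in an entry: GCLM, KEAP1 and TXNRD1. A share by gene over all entries was not computed. The base composition at the summits was described as well. Over 50 bp to each side of the summit of the highest promoter peak, the median GC content of the 9 genes was 72.3%, against 62.4% of all promoter peaks. The 9 values ran from 49.5% for TXNRD1 to 84.2% for GCLM. The sets are unlike, as all promoter peaks include weaker ones and those of noncoding genes. A value for the highest promoter peak of each protein-coding gene was not computed. Away from promoters it was 48.5% in the windows and 47.5% elsewhere.

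Promoter peaks were also counted for the wider pathway. Of 10 partners and regulators of NRF2, among them the small MAF proteins and BACH1, all 10 had a promoter peak, with a median fold of 30.9 and a range from 18.04 for MAFF to 68.5 for CUL3, the cullin of the KEAP1 ligase. Of 20 further NRF2 target genes, 17 had a promoter peak, with a median of 28.3, from 10.8 for FTH1, the ferritin heavy chain, to 61.3 for PGD of the pentose phosphate pathway. GPX2, AKR1C1 and ABCC2 had none. Of 14 other antioxidant enzymes, 13 had one, with a median of 34.0, from 9.28 for PRDX2 to 41.7 for GPX4, and GPX3 had none. The lists were chosen with earlier results of these data known, so their shares and intervals describe these genes and are no test. Together 40 of 44 had a promoter peak, or 90.9% (78.3 to 97.5), against 61.4% of protein-coding genes. Of these 40, 7 held a joint site in one, against 3.03% of protein-coding genes with a promoter peak. Among the 5 renal marker genes with a promoter peak, named below, 1 (KRT8) did as well.

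The labelled cell type was set against marker genes by the same promoter rule. Of 7 markers of renal epithelium or renal carcinoma reported here, PAX8, PAX2, KRT8, KRT18 and VIM had promoter peaks, whereas CA9 and CDH6 had none. These 5 of 7 compare with 61.4% of all protein-coding genes, so the promoter peaks of these markers do not set the line apart as renal. None of the blood or endothelial markers PTPRC, CD3E, PECAM1 and CDH5 and neither liver marker (ALB, APOA2) had one. Pileups at the summits ranged from 9 to 300 over all peaks, and 35% of the 100 peaks and 35.7% of all peaks had a pileup under 15. The height of such peaks is known with little precision, and a region without a peak is not shown to be closed.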

How the data were processed

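ATAC-seq was carried out on 786-O cells with an empty vector, and 1 list of 88676 narrow peaks was analysed. Per the paper's methods and the submitters' processing notes, the authors used fastp for trimming and Bowtie2 2.3.4.3 for alignment to hg38, removed duplicates, mitochondrial reads and reads with a mapping quality below 30, and called peaks with MACS2 2.2.6 on the library by itself, with no local background. A shift of reads for Tn5 is not given in the sources used here. The deposited columns are the fold over background (a ratio), the −log10 p-value and −log10 q-value, a score and the summit offset. The score equalled 10 times −log10 q, rounded down, for 100% of peaks. Peak names in the deposited file carry a wild-type tag, while the label says empty vector, and the label was used.

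From the fold, the pileup was recovered as a whole number (largest deviation 1.83e-05, background 0.941). The number of reads is not given, so the pileup is the measure of depth. Peaks on the 24 primary chromosomes were assigned by summit to GENCODE 44 genes. Promoters spanned 1 kb upstream to 100 bp downstream of any TSS. A promoter fold was scaled to its chromosome by the ratio of the median promoter folds of the genome and the chromosome. Shares have exact Clopper-Pearson intervals. Genes named from the wider lists were the highest and lowest of each list and those without a promoter peak. Alternatives changed the score threshold, window, promoter span, TSS set and motif window. The members and gene lists were chosen with earlier results of these data known. Computation was in Python 3.11.15 (scipy 1.17.1, pandas 2.3.3, numpy 2.4.6), plots were drawn with matplotlib 3.10.9, and the scripts were tested on simulated data. Some marker genes are not reported here.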

Additional observations from a re-analysis of the deposited data

How the results depend on the processing

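Of 52 alternatives over 9 summary values, 39 stayed within the counting interval or within 1.5 times of the value, and 13 did not. This rule is loose. The 39 include the fall from 9 to 6 genes with a promoter peak when canonical starts alone were used. They also include the fall of the median promoter fold from 38.1 to 23.7 at those starts. The number of peaks became 47 at a score above 200, 64 with a 10 kb window and 153 with a 100 kb window. The median fold rose to 19.1 and 24.7 at scores above 100 and 200. The promoter share was 48.9% at a score above 200 and 50% with a promoter reach of 2.5 kb. Peaks with an ARE core numbered 20 when the fourth base was free and 42 when the whole interval was searched. Those with an AP-1 site numbered 22 within 100 bp and 33 in the whole interval, and the share with a joint site was 17.0% at a score above 200 and 1 peak within 50 bp. Of 51 alternatives for promoter folds 49 stayed within the counting interval, but this count says little about stability. The score thresholds could not remove these peaks, whose lowest score was 466, and the changed promoter spans left every fold as it was. NFE2L2, KEAP1 and SQSTM1 had no promoter peak at canonical starts, and this loss is not among the 51. With canonical starts alone the median promoter fold was 23.7 over 6 genes, below the 25.8 of protein-coding genes over all starts, and the fold fell to 26.8 for GCLC and 19.6 for TXNRD1. No paired analysis was possible because the data hold only 1 library. A pileup from 9 upward limits low peaks, and copy number, local background and replicate spread were not measured.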

Other observations

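GPX3, which encodes the secreted plasma glutathione peroxidase made largely by the kidney, had no promoter peak: the summit nearest to one of its starts lay 1235 bp away. Its window nevertheless held 13 peaks, up to 42.8 fold, and 5 of them held a joint site, more than in 99.96% of protein-coding gene windows. An ARE core lay within 50 bp of the summit in 6 of these 13 peaks. Among the NRF2 partners, the MAFG window held 3 peaks with a joint site, a promoter peak of MAFG among them, and the BACH1 window held 2. The windows of TALDO1 and PRDX5 held 2 as well. Of protein-coding gene windows 98.9% held fewer than 3 and 94.8% fewer than 2. These ranks make no allowance for window length or number of peaks. The BACH1 window held 23 peaks and the MAFG window 16, against a median of 7 over protein-coding genes. Windows of the marker genes KRT8, PAX8 and KRT18 reached 3, 2 and 2, and those of KRT8 and KRT18 overlap, so they can share peaks. GPX3, MAFG and BACH1 were chosen after these values were seen, and no test was made.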
